A study of Mus musculus with 6 samples.

Results

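The genes described are the axon guidance ligands and receptors of mouse astrocytes: the ephrins and their Eph receptors, the semaphorins of classes 3 to 7 and their plexin receptors, the Slits and their Robo receptors, and the netrins with their Unc5 receptors. Protein-coding genes were taken by symbol alone, which gave 66 members, 35 ligands and 31 receptors, out of 35127 genes in the annotation that the transcripts were matched to. RNA was sequenced from 3 libraries of astrocytes isolated from mouse brains grafted with small cell lung cancer cells (SCLC), called tumour libraries, and from 3 libraries of astrocytes out of brains that had a sham injection, called sham libraries. The comparison asks how astrocytes taken from beside SCLC differ from astrocytes of sham-injected brains. The sources used here do not give the mouse strain, age, sex, tumour line, interval after injection or method of purification. Nor do they say that libraries came from separate animals, so p-values reflect the spread among these 6 libraries alone, part or all of which may be technical.

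Axon guidance proteins are surface-bound or secreted cues that steer growing axons and migrating cells by attraction or repulsion. Ephrins are held on the cell surface and signal in both directions when they meet an Eph receptor tyrosine kinase on a neighbouring cell. Semaphorins act mostly through plexins, with neuropilins as co-receptors for most class 3 members, Slits act through Robo receptors, and netrins repel through Unc5 receptors. Astrocytes make many of these cues, and several also act on blood vessels and on immune and tumour cells.

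Total depth was similar, from 22133723 to 25800897 estimated reads a library. Tumour libraries 1 to 3 lay close together, as did sham 1 and 2, with root mean square log2 differences of 0.322 to 0.352 over tested genes, whereas sham 3 lay 0.795 to 0.802 from sham 1 and 2. Distances between tumour and sham libraries were 0.734 to 0.749, so sham 3 was farther from the other sham libraries than from any tumour library. The labelled cell type was checked on 8 astrocyte markers, all of which were expressed in every library. They summed to 3130 to 3237 CPM (reads scaled to a common library size) in tumour and 2679 to 4587 CPM in sham libraries. The lowest sum, 2679 CPM, was that of sham 3. Sham 3 was the lowest of all libraries for Sox9, Slc1a2, Slc1a3, Aldoc, Gfap and Aqp4, but not for Aldh1l1 and Gja1. Of the 8 markers Aldh1l1 was called higher and Gja1 lower in the tumour libraries. An allograft's tumour cells are mouse cells too, so their reads fall on the same genes: 8 neuroendocrine tumour markers summed to 24.6 to 26.2 CPM in tumour and 28.1 to 38.4 CPM in sham libraries, Chga was at 0 in all tumour libraries, and Epcam stood at 0.237 to 0.331 CPM in tumour libraries and at 0 in sham libraries. Of the 5 tumour markers that could be tested edgeR called 0 (2 at an unadjusted p below 0.05), whereas DESeq2 called 2 and limma-voom 1, each of them lower in tumour libraries. The 6 neuronal markers summed to 94.9 to 105 CPM in tumour and 83.5 to 141 CPM in sham libraries, nearly all of it Stmn2, with Rbfox3 at 0 throughout and Gad1 called higher in tumour libraries (log2 fold change 1.70). The 6 endothelial markers summed to 586 to 592 CPM in tumour and 515 to 614 CPM in sham libraries, mostly Cdh5, with Cldn5 at 0 throughout and Kdr called lower in tumour libraries (log2 fold change -1.29). The 6 pericyte and fibroblast markers, led by Col1a1, summed to 1302 to 1309 CPM in tumour and 1359 to 1973 CPM in sham libraries. The highest sum was that of sham 3, where Col1a1 stood at 1717 CPM, while Dcn was lowest there at 52.5 CPM. The 6 microglia and macrophage markers summed to 88.4 to 89.0 CPM in tumour and 80.3 to 111 CPM in sham libraries, nearly all of it Tmem119, the other 5 being under 1 CPM in every library. The 5 oligodendrocyte markers, led by Mbp in tumour libraries, summed to 15.5 to 18.2 CPM in tumour and 6.90 to 10.98 CPM in sham libraries. The 4 oligodendrocyte precursor markers summed to 351 to 357 CPM in tumour and 282 to 439 CPM in sham libraries. Of these Pdgfra was called higher in tumour libraries and was lowest in sham 3, at 127 CPM, whereas Olig1, Olig2 and Cspg4 were highest in sham 3, at 171, 39.5 and 100.5 CPM. The part of these other cell types in the member results was not tested, and in bulk RNA fewer cells of a type cannot be told apart from less RNA per cell.

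Of the 66 members 60 passed the filter on low counts and were tested. Epha8, Epha10, Ephb1, Sema3g, Robo3 and Robo4 were not, and none of them exceeded 0.493 CPM in any library. In the tumour libraries 10 members rose and 7 fell (edgeR's quasi-likelihood test with Benjamini-Hochberg adjustment over all 14359 tested genes, called below 0.05). That is 16.7% and 11.7% of the members tested, beside 10.5% of all tested genes called higher and 10.4% called lower. The median log2 fold change, tumour over sham, was -0.03 over the members and -0.02 over all tested genes. In 28 of the 60 members (46.7%) the 3 tumour values and the 3 sham values did not overlap, beside 44.1% of all tested genes. The share without overlap and the median were thus close to those over all genes. Of the ligands tested, 7 of 34 rose and 5 fell. Of the receptors tested, 3 of 26 rose and 2 fell. The filter touched 7 members that were under its minimum of about 0.418 CPM in some library: Unc5a and Epha6 were above it in the sham libraries alone, and Slit1, Sema4a, Plxnb3, Unc5d and Ntn5 in all 3 tumour libraries and in 1 or 2 sham libraries. Among these 7 only Sema4a was called.

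**Figure D1:**
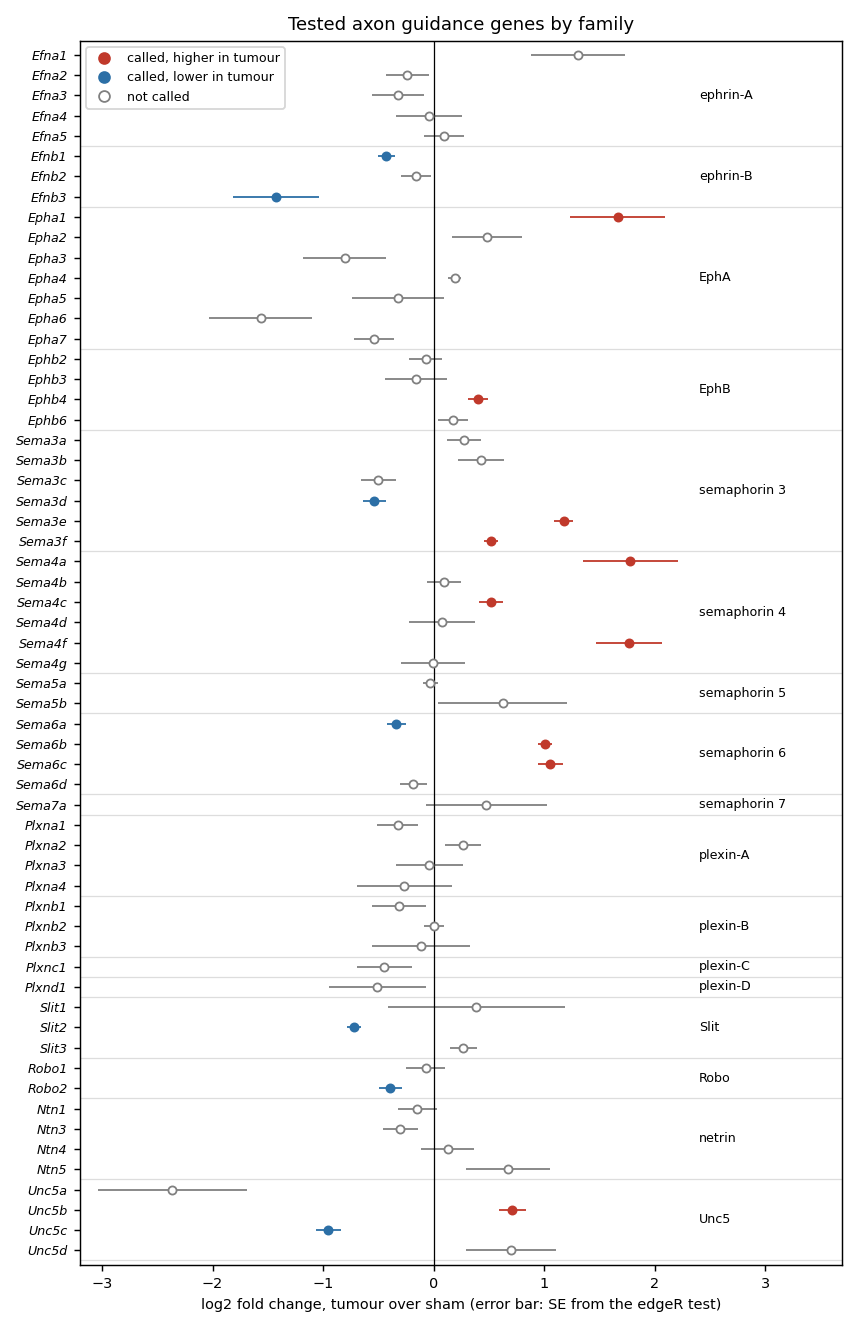
Log2 fold change, tumour over sham, of each tested member (points) with the SE from the edgeR test (bars), grouped by family down the page. Filled red points were called higher and filled blue points lower; 7 semaphorins are red, and all 9 plexin points are open.

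The semaphorins held most of the rises. Of 19 tested, 7 rose (36.8%) and 2 fell (10.5%), with a median log2 fold change of 0.43, beside 10.5% of all tested genes called higher and 10.4% lower. Without any 1 tumour library 4 semaphorins were called higher and 0 lower, the calls of Sema4f, Sema4c, Sema4a, Sema3d and Sema6a ending. Over all genes 3.69% to 3.73% were then called higher and 2.44% to 2.64% lower. Beside 29.1% and 28.6% of all genes then tested, 12 semaphorins were called higher and 5 lower without sham 3. Their levels summed to 408, 411 and 409.7 TPM (a level corrected for transcript length) in tumour libraries 1 to 3, against 312, 312 and 342 TPM in sham libraries 1 to 3, a mean of 409.7 ± 1.40 against 322 ± 16.8 TPM (SD, n = 3 each). The 3 tumour sums all lay above the 3 sham sums, while 44.1% of all tested genes had CPM that did not overlap between the groups. The sums hold members that were not called as well. Among these were Sema3a, with 105 TPM in tumour and 78.9 TPM in sham libraries, and Sema3b, with 63.6 and 48.9 TPM. The plexins, which receive semaphorin signals, were not called in either direction with all 6 libraries. In edgeR, DESeq2 or limma-voom 0 of 9 passed, and 0 were at an unadjusted p below 0.05 in edgeR. Over all tested genes edgeR called 20.9%, and 5216 of 14359 were at an unadjusted p below 0.05. Without sham 3 Plxna2 (log2 fold change 0.47), Plxnd1 (0.22), Plxnc1 (-0.67) and Plxnb1 (-0.57) were called, beside 57.7% of all genes then tested. Plxna1 and Plxnb2 were not, and the results of that fit for Plxna3, Plxna4 and Plxnb3 are not given here. The plexin levels summed to 292 ± 7.63 TPM in tumour and 297 ± 12.3 TPM in sham libraries.

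Sema6b had the smallest p of all members. It encodes a transmembrane semaphorin that can bind plexin-A receptors. It had 62.5, 60.2 and 60.7 CPM in tumour libraries 1 to 3, against 29, 29.9 and 32 CPM in sham libraries 1 to 3. The groups lay far apart and sham 3 stood with the other sham libraries. The rise was 2.01-fold (log2 fold change 1.01, SE 0.06, edgeR adjusted p = 0.000509).

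The larger part of that rise, 17.5 CPM beside 13.2 CPM, lay in reads that Salmon assigned to the shorter of 2 annotated transcripts. The gene lies on the minus strand of chromosome 17 from 56123085 to 56140343 (mm10). Sema6b-201 starts at 56140343 and Sema6b-202 starts 6500 bases downstream at 56133843, inside the first intron of Sema6b-201. Each has 17 exons, 15 of them with the same ends. They differ in the first exon and in the last exon, which is 682 bases shorter in Sema6b-202. Sema6b-202 had 23.5, 19.5 and 20.9 CPM in tumour libraries 1 to 3, against 1.32, 2.54 and 7.44 CPM in sham libraries 1 to 3. Sema6b-201 had 38.9, 40.7 and 39.8 CPM in tumour libraries, against 27.7, 27.4 and 24.6 CPM in sham libraries. Both transcripts were thus higher in all tumour libraries than in any sham library. The means were 21.3 ± 2.07 CPM in tumour and 3.76 ± 3.24 CPM in sham libraries for Sema6b-202, and 39.8 ± 0.889 CPM in tumour and 26.6 ± 1.71 CPM in sham libraries for Sema6b-201. Sema6b-202 took 37.7%, 32.3% and 34.4% of the gene's reads in tumour libraries, against 4.54%, 8.49% and 23.2% in sham libraries, with sham 3 nearest to the tumour libraries. These values were looked at after the gene's own change was known and carry no test. The 2 transcripts share nearly all exons, so their split rests on reads over the first exon and the longer end of the last.

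**Figure D2:**
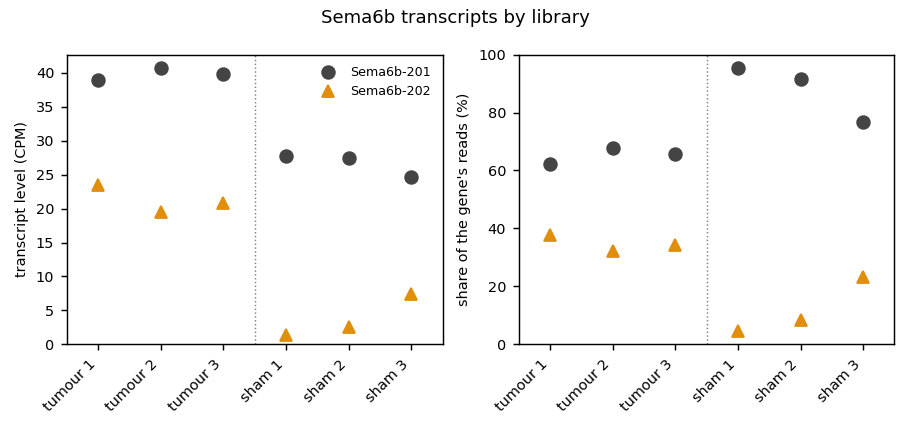
Estimated level in CPM (left) and share of the gene's reads in percent (right) of the 2 Sema6b transcripts in each library, tumour left of the dotted line and sham right of it. Sema6b-202 lies between 19.5 and 23.5 CPM in the tumour libraries and between 1.32 and 7.44 CPM in the sham libraries.

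The 250 bases before both RefSeq starts of Sema6b are shown because the 2 transcripts differ in their start, and those of Sema3e and Slit2 because these are the members with the next smallest p, one higher and one lower. The sequences are from the RefSeq promoter table (GRCm38.p6, the assembly of mm10), which matched 57 of the 66 members, and run 5′ to 3′ on the gene's strand. The RefSeq start lies 9 bases from the Sema6b-202 start given above and 17 bases from the annotated start of Slit2. Capitals mark CACGT, the reverse complement of ACGTG, a form of the core motif bound by hypoxia-inducible factors. This form was searched on both strands, and the 2 spellings overlap where CACGTG occurs. Other forms of the core, such as GCGTG, were neither searched nor marked.
Sema6b, upstream start, chr17:56140344-56140593, minus strand: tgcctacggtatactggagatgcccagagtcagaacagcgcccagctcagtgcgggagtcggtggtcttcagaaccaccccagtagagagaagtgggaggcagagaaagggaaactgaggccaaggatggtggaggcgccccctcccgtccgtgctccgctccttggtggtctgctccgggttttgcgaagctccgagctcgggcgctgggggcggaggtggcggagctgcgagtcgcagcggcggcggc
Sema6b, downstream start, chr17:56133853-56134102, minus strand: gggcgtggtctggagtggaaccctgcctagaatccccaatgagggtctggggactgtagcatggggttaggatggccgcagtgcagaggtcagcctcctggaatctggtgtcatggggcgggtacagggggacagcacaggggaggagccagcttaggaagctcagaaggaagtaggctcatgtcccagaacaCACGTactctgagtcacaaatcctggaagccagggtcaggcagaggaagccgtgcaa
Sema3e, chr5:14025026-14025275, plus strand: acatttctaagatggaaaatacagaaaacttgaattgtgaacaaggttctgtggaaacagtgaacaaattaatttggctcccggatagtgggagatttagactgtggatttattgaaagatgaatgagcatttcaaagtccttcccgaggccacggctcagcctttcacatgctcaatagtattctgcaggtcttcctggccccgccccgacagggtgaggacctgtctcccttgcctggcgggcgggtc
Slit2, chr5:47982905-47983154, plus strand: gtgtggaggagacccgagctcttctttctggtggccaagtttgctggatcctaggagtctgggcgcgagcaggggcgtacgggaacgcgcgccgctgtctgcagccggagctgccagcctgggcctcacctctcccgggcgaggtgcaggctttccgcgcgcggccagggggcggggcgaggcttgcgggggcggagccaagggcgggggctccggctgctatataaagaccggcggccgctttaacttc

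Of these 4 windows only that of the downstream Sema6b start held the searched form, beginning 57 bases before the RefSeq start. Over the promoter table this form stood in 16.6% of all 32851 windows and in 16.4% of the 73 windows of members. Among the called members it stood in 2 of 22 windows. The GC content was 66% before the upstream and 59.2% before the downstream Sema6b start, 69.6% for Slit2 and 48% for Sema3e.

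Sema3e, a secreted class 3 semaphorin that binds plexin-D1 directly and is known for guiding vessels and axons, rose as well. It had 164, 161 and 163 CPM in tumour libraries, against 69.1, 66 and 80.4 CPM in sham libraries. The tumour values lay far above every sham value, and the fold between the means was 2.26 (log2 fold change 1.18, SE 0.09, adjusted p = 0.000746). Its receptor gene Plxnd1 had 21.7, 21.6 and 25.6 CPM in tumour libraries, against 20.5, 18.8 and 58.7 CPM in sham libraries (log2 fold change -0.51, SE 0.44, adjusted p = 0.452), so sham 3 alone stood apart. Without sham 3 the log2 fold change of Plxnd1 was 0.22 and was called.

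Sema3f, which signals through neuropilin-2 and plexin-A receptors, had 94.5, 93.2 and 93.9 CPM in tumour libraries, against 61.2, 69.6 and 65.7 CPM in sham libraries (log2 fold change 0.52, SE 0.07, adjusted p = 0.0041). Sema3d, another secreted member, went the other way, with 76.6, 81 and 75.7 CPM in tumour and 126, 115 and 96.5 CPM in sham libraries (log2 fold change -0.54, SE 0.10, adjusted p = 0.0163). In both genes the groups did not overlap. Sema3a, the classical axon-collapsing semaphorin, was the most abundant class 3 member at 105 ± 3.48 TPM in tumour and 78.9 ± 24.4 TPM in sham libraries. It was not called (log2 fold change 0.27, SE 0.15, adjusted p = 0.253), and its tumour libraries at 194 to 198 CPM lay above sham 1 and 2 at 141 and 139.6 CPM but below sham 3 at 204 CPM. Sema3b and Sema3c, named after their values were seen, had log2 fold changes of 0.43 (adjusted p = 0.188) and -0.50 (adjusted p = 0.0686) in edgeR, and DESeq2 called Sema3c lower.

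In length-corrected level Sema3e was the lowest of the 6 tested class 3 semaphorins in sham libraries, at 17.8 ± 2.45 TPM, while in tumour libraries it stood at 41.7 ± 0.73 TPM, above Sema3c (24.2 ± 3.28 TPM) and Sema3d (22.5 ± 1.07 TPM). In sham libraries Sema3c had 34.3 ± 9.56 TPM and Sema3d 31.4 ± 2.93 TPM, which overlapped each other. Sema3d, Sema3a, Sema3e and Sema3c lie in this order on the plus strand of chromosome 5, with gaps of 536466, 422711 and 3317592 bases. The called fall of Sema3d and the called rise of Sema3e thus flank a gene that was not called. Sema3b and Sema3f, 72271 bases apart on chromosome 9, both had positive values.

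Among the class 6 semaphorins, which are transmembrane proteins, Sema6c rose beside Sema6b. It had 16, 17.8 and 17.6 CPM in tumour libraries, against 8.75, 8.6 and 7.3 CPM in sham libraries (log2 fold change 1.06, SE 0.11, adjusted p = 0.00265). With offsets for transcript length its log2 fold change was 1.67. The share of its reads on Sema6c-201 was 17.2%, 10.18% and 30.1% in tumour libraries, against 50.5%, 7.37% and 46.9% in sham libraries, and the part of such shifts in this difference was not tested. Sema6a, which binds plexin-A2 and plexin-A4, was lower, with 37.1, 35.5 and 39.3 CPM in tumour and 45.6, 51.8 and 43.8 CPM in sham libraries (log2 fold change -0.34, SE 0.09, adjusted p = 0.0373). Sema6d was not called.

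Class 4 semaphorins are membrane-bound and known mainly for plexin-B signalling and immune functions. Sema4f had 6.29, 6.13 and 6.16 CPM in tumour libraries, against 1.19, 1.62 and 2.63 CPM in sham libraries (log2 fold change 1.77, SE 0.30, adjusted p = 0.0102). Sema4c, a ligand of plexin-B2, had 19.2, 16.5 and 18.9 CPM in tumour and 11.6, 13 and 13.6 CPM in sham libraries (log2 fold change 0.52, SE 0.11, adjusted p = 0.02). Both changes were rises without overlap, but Sema4f is a low-level gene at 2.18 ± 0.165 TPM in tumour libraries. Sema4a is a gene near the detection limit: 1.74, 1.44 and 2.09 CPM in tumour libraries stood against 0.792, 0.457 and 0.272 CPM in sham libraries, where 3 reads are 0.125 to 0.136 CPM (log2 fold change 1.78, SE 0.43, adjusted p = 0.0321). Of the other members of class 4, Sema4b was the most abundant and was not called (log2 fold change 0.09, adjusted p = 0.711). In classes 5 and 7, 0 of 3 members were called by edgeR, DESeq2 or limma-voom, and 0 were at an unadjusted p below 0.05 in edgeR. Over all tested genes edgeR called 20.9% in either direction. Sema5a had 43.9 ± 2.12 CPM in tumour and 44.8 ± 1.80 CPM in sham libraries, and Sema7a had 3.03 ± 0.677 CPM in tumour and 2.18 ± 1.71 CPM in sham libraries.

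**Figure D3:**
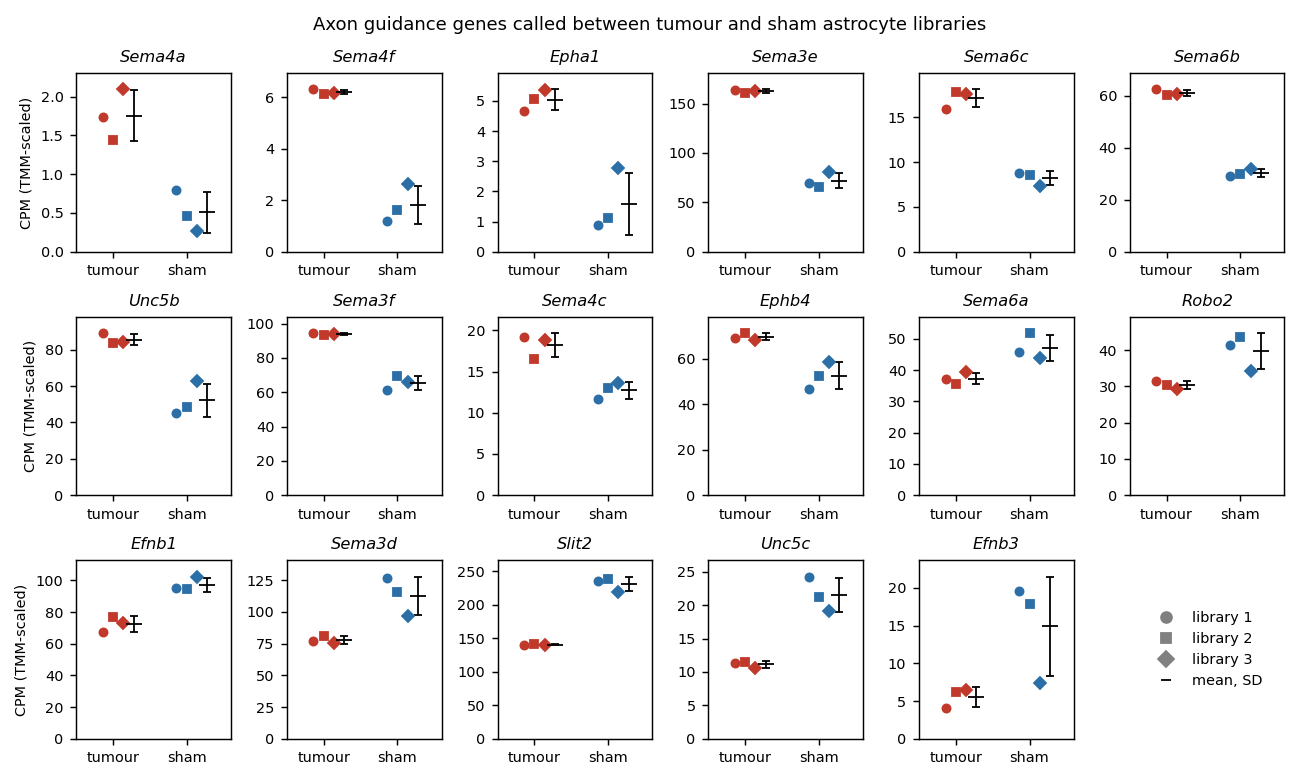
CPM in each library (points, library number by marker shape) with the mean and SD of each group (black), tumour left and sham right, for the 17 called members, ordered from the largest rise to the largest fall. In all 17 the 3 tumour points lie on one side of the 3 sham points; for Efnb3 the gap is narrow, 6.4 CPM in the highest tumour library and 7.4 CPM in sham 3.

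Plexin levels were spread widely. Plxnb2, the receptor of several class 4 semaphorins, was the most abundant of all members, with 690.3, 697 and 684 CPM in tumour libraries and 669, 679 and 722 CPM in sham libraries. Its groups overlapped and its log2 fold change was 0.00 (SE 0.09, adjusted p = 0.993). In TPM it stood at 161 ± 3.75 in tumour and 164 ± 7.37 in sham libraries, followed among the plexins by Plxna2 at 58.1 ± 0.762 in tumour and 47.9 ± 11.8 in sham libraries. Plxnb1 came next at 37.5 ± 5.61 TPM in tumour and 46.2 ± 16.5 TPM in sham libraries, where it and Plxna2 overlapped. Plxna2 had 440 to 457 CPM in tumour libraries, against 322, 329 and 473 CPM in sham libraries 1 to 3 (log2 fold change 0.27, adjusted p = 0.286). Plxnb1, named after its values were seen, had 175 to 180.1 CPM in tumour libraries, against 259, 265 and 135 CPM in sham libraries 1 to 3, so sham 3 was the lowest of all. Plxnc1, the receptor of Sema7a, had 7.58, 5.96 and 7.23 CPM in tumour and 10.8, 11.3 and 6.22 CPM in sham libraries. Its log2 fold change was -0.44 in the main test and 0.52 with transcript length offsets, and it was called in neither.

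Slit2, a secreted repellent that acts through Robo1 and Robo2, was the member with the smallest p among those that fell. It had 140.1, 140.6 and 140.2 CPM in tumour libraries, against 236, 239 and 219 CPM in sham libraries. The tumour values nearly coincided and all lay far under the sham values (log2 fold change -0.72, SE 0.07, adjusted p = 0.00163). Slit3 did not follow, with 154, 148 and 148 CPM in tumour and 136, 135 and 102 CPM in sham libraries (log2 fold change 0.27, SE 0.12, adjusted p = 0.155). In length-corrected level Slit2 and Slit3 were equal in tumour libraries, at 36.8 ± 2.74 and 36.8 ± 1.41 TPM, whereas in sham libraries Slit2 stood at 57.4 ± 0.714 TPM and Slit3 at 30.2 ± 4.32 TPM. Of the receptors Robo2 was lower, with 31.3, 30.4 and 29.3 CPM in tumour and 41.4, 43.7 and 34.3 CPM in sham libraries (log2 fold change -0.39, SE 0.10, adjusted p = 0.0403). Robo1 had 73.4 ± 1.53 CPM in tumour and 77 ± 20.7 CPM in sham libraries, with 101 CPM in sham 3 (log2 fold change -0.07, adjusted p = 0.816).

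The netrin receptors of the Unc5 group changed in opposite directions while 0 of 4 netrins were called by edgeR, DESeq2 or limma-voom. In edgeR 0 netrins were at an unadjusted p below 0.05. Over all tested genes edgeR called 20.9% in either direction. Unc5b, a repulsive netrin receptor also known from blood vessels, had 89.2, 83.5 and 84.2 CPM in tumour libraries, against 45.4, 48.6 and 62.7 CPM in sham libraries (log2 fold change 0.71, SE 0.13, adjusted p = 0.0118). Unc5c, which mediates repulsion by netrin-1, had 11.3, 11.5 and 10.6 CPM in tumour libraries, against 24.3, 21.2 and 19.1 CPM in sham libraries (log2 fold change -0.95, SE 0.11, adjusted p = 0.00354). Neither pair of groups overlapped. In length-corrected level Unc5b, at 18.8 ± 0.872 TPM in tumour and 11.3 ± 2.17 TPM in sham libraries, was more abundant in both groups than Unc5c, at 2.39 ± 0.233 TPM in tumour and 4.21 ± 0.688 TPM in sham libraries. Unc5a, named after its values were seen, had 0.124, 0.288 and 0.0395 CPM in tumour and 0.836, 1.08 and 0.454 CPM in sham libraries and was not called by edgeR (adjusted p = 0.0521), but was called lower by DESeq2 and limma-voom. Among the ligands Ntn4 was highest at 28.7 ± 1.23 TPM in tumour and 26 ± 8.39 TPM in sham libraries (log2 fold change 0.13, adjusted p = 0.745), and Ntn1, named after its values were seen, had a log2 fold change of -0.15 (adjusted p = 0.602). The receptor gene Dcc, through which netrin-1 attracts axons, was at 0.828, 1.07 and 0.829 CPM in tumour and 0.572, 0.665 and 0.0907 CPM in sham libraries (adjusted p = 0.276).

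Of the 8 ephrins 2 fell (25%), and of the 11 Eph receptors tested 2 rose (18.2%). Over all tested genes 10.4% were called lower and 10.5% higher. Efnb1, a transmembrane ligand of EphB receptors, had 67.2, 77 and 72.9 CPM in tumour libraries, against 95, 94.3 and 102 CPM in sham libraries (log2 fold change -0.43, SE 0.07, adjusted p = 0.0109). Efnb3, a midline repellent in the developing spinal cord, had 4.02, 6.21 and 6.4 CPM in tumour libraries, against 19.5, 17.8 and 7.4 CPM in sham libraries (log2 fold change -1.43, SE 0.39, adjusted p = 0.0451). Sham 3 was therefore close to the tumour libraries for Efnb3 but not for Efnb1. Efnb2, the partner of EphB4 on vessels, was not called (log2 fold change -0.16, adjusted p = 0.458).

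The 2 Eph receptors that rose were Ephb4 and Epha1. Ephb4, the receptor specific for ephrin-B2, had 69.1, 71.3 and 68.4 CPM in tumour and 46.6, 52.6 and 58.4 CPM in sham libraries (log2 fold change 0.41, SE 0.09, adjusted p = 0.0251). Epha1 had 4.68, 5.06 and 5.37 CPM in tumour and 0.88, 1.12 and 2.77 CPM in sham libraries (log2 fold change 1.66, SE 0.43, adjusted p = 0.0383). For both genes sham 3 was the sham value nearest to the tumour libraries. Ephb4 was also the most abundant Eph receptor, at 20.2 ± 0.369 TPM in tumour and 15 ± 1.96 TPM in sham libraries. Epha2, the most abundant EphA gene, was next at 18.3 ± 1.02 TPM in tumour and 13.5 ± 8.26 TPM in sham libraries, where the levels of the pair overlapped. Its CPM were 52.9, 55.7 and 50.4 in tumour libraries, against 24.8, 29.3 and 59.7 in sham libraries, and it was not called (adjusted p = 0.324).

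Epha4, a receptor that binds ephrins of both classes, had 44.3, 45 and 45 CPM in tumour and 39.7, 38.9 and 39.2 CPM in sham libraries, a small difference without overlap that was not called by edgeR (log2 fold change 0.19, SE 0.06, adjusted p = 0.0548) but was by DESeq2. Among the ephrin-A ligands Efna5 was the most abundant (log2 fold change 0.10, adjusted p = 0.743). Efna1, Efna3 and Efna4 lie in a row on chromosome 3 with gaps of 32757 and 10425 bases. Efna1 had 3.4, 4.48 and 3.12 CPM in tumour and 2.24, 1.5 and 0.681 CPM in sham libraries (log2 fold change 1.31, SE 0.42, adjusted p = 0.0735), so it was not called by edgeR, and was called higher by DESeq2 and limma-voom, while Efna3 and Efna4 had -0.32 (adjusted p = 0.375) and -0.04 (adjusted p = 0.938). Epha6, at 0.232 ± 0.0983 CPM in tumour and 0.694 ± 0.131 CPM in sham libraries, had an adjusted p of 0.0572. Epha4, Efna1, Efna3, Efna4, Efnb2 and Epha6 were named after their values were seen.

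Sham 3 set much of the spread within the sham group. It had the highest value of all 6 libraries in 24 of the 60 tested members and the lowest in 14, beside 27.3% and 27.4% of all tested genes. Of the 9 plexins it was highest in 5 and lowest in 3. Without sham 3, 25 members were called higher and 19 lower, beside 29.1% and 28.6% of all genes then tested, 57.7% in both directions, so that calls gained in this way say little about a member.

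**Figure D4:**
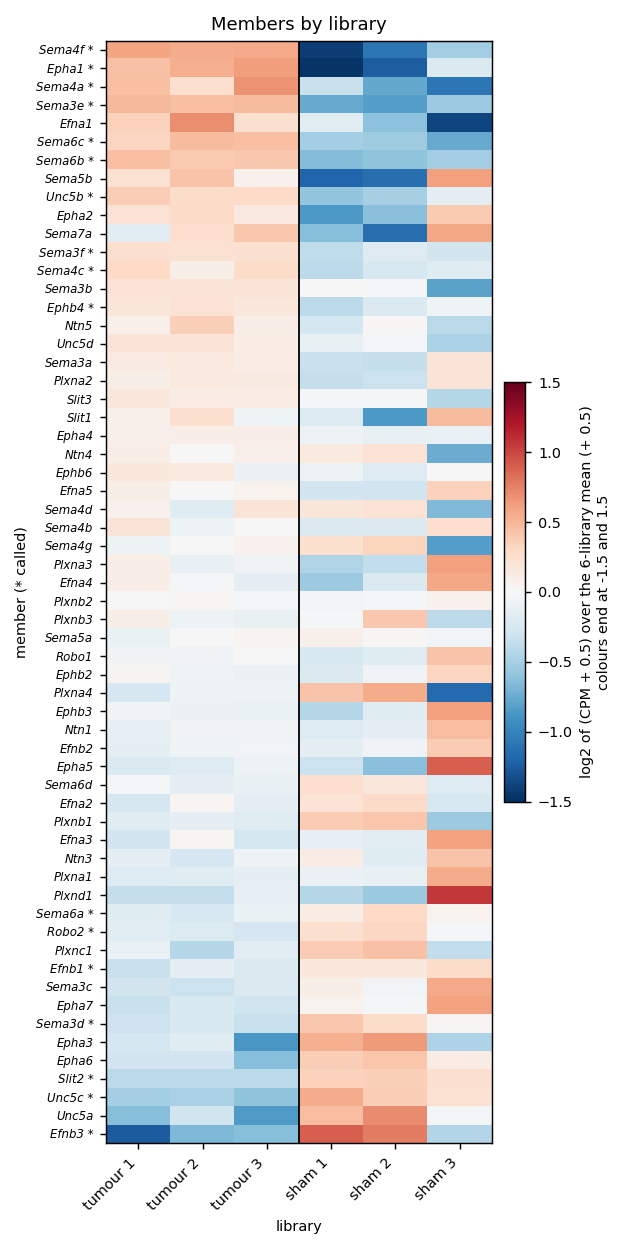
Log2 of CPM (0.5 added) over the mean of the 6 libraries for the 60 tested members (rows, ordered by the tumour mean minus the sham mean on this scale, called members starred) in tumour libraries 1 to 3 and sham libraries 1 to 3 (columns). The tumour columns resemble each other, and sham 3 differs from sham 1 and 2 in many rows, such as Plxnd1 at 58.7 CPM against 20.5 and 18.8 CPM.

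Of the 17 called members, 6 kept their call whichever library was left out: Sema6b, Sema3e, Sema6c and Sema3f among those that rose, and Slit2 and Unc5c among those that fell. Their log2 fold changes moved little, from 0.97 to 1.05 for Sema6b and from -0.76 to -0.70 for Slit2. The calls of Sema4f, Unc5b, Sema3d, Sema4c, Ephb4, Sema4a, Sema6a, Epha1, Robo2 and Efnb3 ended without any 1 of the tumour libraries, and that of Efnb1 without tumour 1 or tumour 3. Without sham 2 the calls of Sema3d and Sema4a ended too, and without sham 1 or sham 2 those of Sema4c, Ephb4, Sema6a, Epha1, Robo2 and Efnb3. The sign stayed the same for all 17 in each of these fits. Over all genes the share called shrank as well, from 10.5% higher and 10.4% lower with all 6 libraries. It was 3.69% to 3.73% higher and 2.44% to 2.64% lower without 1 tumour library. Without sham 1 or sham 2 it was 5.65% to 5.83% higher and 4.75% to 5.20% lower. An ended call is thus not particular to these members. Offsets for transcript length ended the calls of Sema4a, Sema6a, Epha1, Robo2 and Efnb3, and that of Efnb3 also ended under limma-voom and without the filter. Without sham 3 the log2 fold change was 2.32 for Epha1, 2.13 for Sema4f and -1.75 for Efnb3. When tumour libraries 1 to 3 were summed to 1 library and sham 1 and 2 to another, 1 tumour library stood against 2 sham libraries. The spread in that fit rests on the sham libraries alone, so it cannot decide which calls hold. Its log2 fold changes were 0.99 for Sema6b, 1.13 for Sema3e and -0.70 for Slit2. Whether the calls would hold with near libraries taken as repeats is not known.

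**Figure D5:**
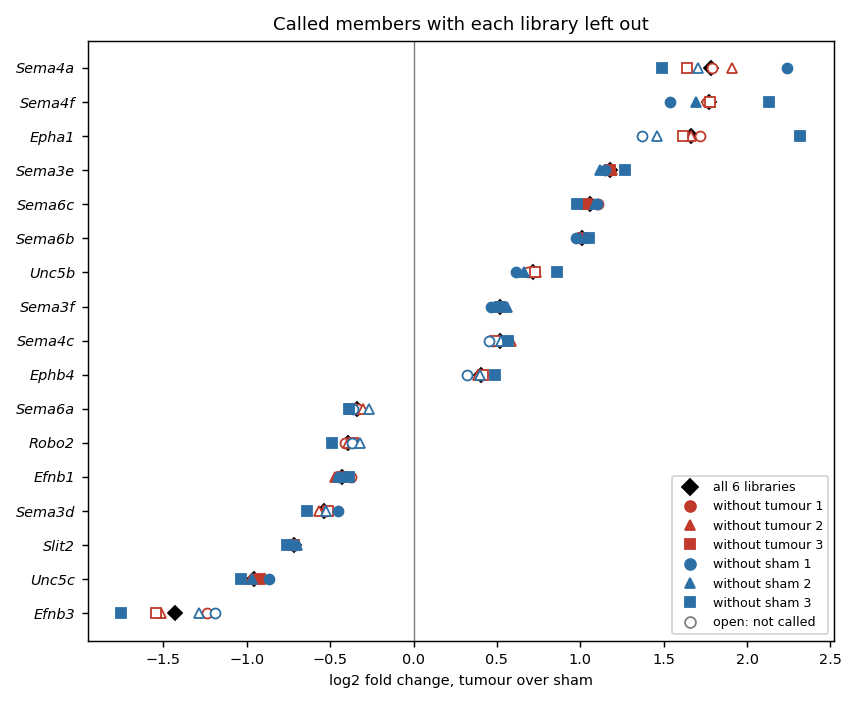
Log2 fold change, tumour over sham, of the 17 called members with all 6 libraries (black) and without 1 tumour library (red) or 1 sham library (blue). Open symbols were not called in that fit; for 6 members every symbol is filled, and no symbol crosses 0.

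Transcript shares were compared in the other members too. Only genes above a minimum mean CPM in both groups were used. Of 49 transcripts of 20 such members that held between 10% and 90% of their gene's reads, 6 had shares that did not overlap between the groups. That is 12.2%, beside 18.5% of all such transcripts. They belonged to Sema6b, Sema3e, Sema3b and Sema6d. Sema6b and Sema3e each gave a pair whose shares mirror each other, so these shifts are counted from both sides. Such pairs were counted in the same way over all genes. The share of the Sema3e transcript Sema3e-202 was 34.7%, 35% and 36.7% in tumour libraries and 21.4%, 33% and 30.1% in sham libraries. That of Sema6d-203 was 21.1%, 21.6% and 15.5% in tumour libraries, against 34.6%, 26% and 32.6% in sham libraries.

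The other genes of the pathway changed in both directions as well. Of 83 listed co-receptors, further guidance cues and intracellular effectors, 79 were tested, 11 rose (13.9%) and 10 fell (12.7%), beside the 10.5% and 10.4% of all tested genes given above. Their median log2 fold change was -0.04. Among the 21 tested co-receptors and cues, 2 rose and 3 fell. Met, the hepatocyte growth factor receptor that can associate with plexin-B proteins, had 77.7, 76.9 and 80.4 CPM in tumour and 45.2, 44 and 58.3 CPM in sham libraries (log2 fold change 0.67, SE 0.12, adjusted p = 0.0112). The tetraspanin gene Tspan18 had 27.5, 28.7 and 27.8 CPM in tumour and 60.9, 62.5 and 89.6 CPM in sham libraries (log2 fold change -1.34, SE 0.16, adjusted p = 0.00341). Both changes exceeded the spread within groups, although the call of Met ended without any 1 tumour library. The neuropilin genes, co-receptors of class 3 semaphorins, were not called with all libraries. Nrp1 had 94.2 ± 3.74 CPM in tumour libraries, against 152, 150 and 93.5 CPM in sham libraries 1 to 3 (adjusted p = 0.112). Nrp2 had 130.5 ± 6.58 CPM in tumour and 122 ± 9.65 CPM in sham libraries (adjusted p = 0.444). Neo1, a receptor related to Dcc, had 374 ± 9.22 CPM in tumour libraries, against 542, 536 and 239 CPM in sham libraries 1 to 3 (adjusted p = 0.627). Without sham 3 the log2 fold changes of Nrp1 and Neo1 were -0.68 and -0.53 and were called, beside 28.6% of all genes then called lower. Nrp1, Nrp2, Neo1 and Dcc were named after their values were seen.

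Of the 58 intracellular effectors and proteases 9 rose (15.5%) and 7 fell (12.1%), beside 10.5% and 10.4% of all tested genes. Limk1, the kinase that phosphorylates cofilin, had 80.5, 84 and 87.1 CPM in tumour and 31.3, 35.3 and 52.2 CPM in sham libraries (log2 fold change 1.08, SE 0.19, adjusted p = 0.0114). Farp1, a guanine nucleotide exchange factor, rose to 170 ± 2.12 CPM in tumour libraries, against 104 ± 15.7 CPM in sham libraries (log2 fold change 0.70, adjusted p = 0.00844). Srgap3, a GTPase-activating protein of the Slit-Robo pathway, rose by a log2 fold change of 0.52 (adjusted p = 0.00998), and Arhgef11, a RhoA exchange factor bound by plexin-B proteins, by 0.43 (adjusted p = 0.00593). Vav2, an exchange factor recruited by Eph receptors, had a log2 fold change of -0.46 (adjusted p = 0.00702) and Itsn1, a Cdc42 exchange factor, -0.45 (adjusted p = 0.0129). The exchange factors and GTPase-activating proteins named here thus moved in both directions. The calls of Limk1, Srgap3 and Itsn1 ended without any 1 tumour library, that of Itsn1 also with length offsets, and that of Farp1 without tumour 1 or tumour 3.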

How the data were processed

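RNA of 3 tumour and 3 sham astrocyte libraries was compared, with groups and replicate numbers from the sample titles. The authors deposited estimated counts per transcript with transcript lengths, effective lengths and TPM, per the file headers. The tools and genome build in the submitters' processing notes are mm10, DESeq2 1.28.1 and Salmon 0.8.2. The sources used here do not give library kit, strandedness or read length, so reads of overlapping genes cannot be separated, and reads shared by transcripts were divided by Salmon's estimate.

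Of 113116 transcripts, 112841 were matched by identifier to GENCODE M21 (GRCm38), and the deposited estimated counts, added up over each gene's transcripts, were rounded to whole numbers. The test was edgeR 4.0.16 (R 4.3.3): TMM, filterByExpr with a minimum count of 10 and minimum total of 15, a robust quasi-likelihood fit on group, and Benjamini-Hochberg adjustment over all genes at 0.05. Each SE was obtained as |log2 fold change| over the root of the F statistic and so restates the test. CPM use TMM library sizes. TPM are sums of the deposited TPM. The fits were tested on simulated data, where DESeq2 made more false calls than edgeR and limma-voom. The simulated libraries were drawn independently with the same dispersion in both groups. They lacked the close tumour libraries and the separate sham 3 of these data, so they do not rank the tools here. Alternatives were DESeq2 1.42.0, limma-voom (limma 3.58.1), DESeq2 size factors, no filter, length offsets, a replicate block, each library left out, and near libraries summed.

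Members and lists were chosen with earlier results of these data known. The genes named are the called members without overlap and with a mean of at least 1 CPM, the member of highest TPM in each family, and the 8 called pathway genes of smallest p, beside those said to be named after their values were seen. Transcript shares and promoters were examined afterwards. Hjv was matched as Hfe2.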

Additional observations from a re-analysis of the deposited data

How the results depend on the processing

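The counts of calls moved with the libraries used. With each library left out in turn, 4 to 25 members were called higher and 2 to 19 lower, and 1 to 29 signalling genes higher and 2 to 22 lower, the largest counts coming without sham 3. Over all genes then tested the shares moved too, from 3.69% to 29.1% higher and from 2.44% to 28.6% lower. With the replicate number as a block, 6 members were higher and 4 lower, and 7 signalling genes higher and 5 lower, beside 5.77% and 4.23% of all tested genes. The calls of Sema4c, Ephb4, Sema4a, Sema6a, Epha1, Robo2, Efnb3 and Itsn1 then ended. Whether equal numbers pair the libraries is not stated in the sample titles. Deviations of same-numbered tumour and sham libraries had correlations of 0.00785, -0.0194 and -0.0008, and those of differently numbered libraries -0.0123 to 0.0138. Because the tumour libraries lay close together and sham 3 lay apart, these values cannot show whether the numbers pair libraries. With transcript length offsets 4 members and 6 signalling genes were lower, beside 6.75% of all tested genes. With near libraries summed edgeR called 0 members and 0 signalling genes in either direction, with 4 of 63 members and 2 of 79 signalling genes at an unadjusted p below 0.05. DESeq2 (12 members higher, 10 lower), limma-voom (11 and 7), DESeq2 size factors (10 and 7) and no filter (10 and 6) gave counts within 1.5 times those reported. Over all genes DESeq2 called 13.6% higher and 13.7% lower, limma-voom 11.5% and 10.3%, DESeq2 size factors 10.5% and 10.3%, no filter 6.40% and 6.52%.

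No called member changed sign in any alternative. Some log2 fold changes of genes that were not called in the main test did: Plxnc1 (0.52) and Plxnb2 (-0.064) with length offsets, Plxnb2 without a filter (-0.0072), Plxnb2 (-0.020) and Efna5 (-0.015) with near libraries summed, and Efna4 under limma-voom (0.048) and with the replicate block (0.037). With 1 library left out the ranges were -0.79 to 0.22 for Plxnd1, -0.059 to 0.010 for Sema5a, -0.19 to 0.17 for Robo1, -0.020 to 0.34 for Efna5, -0.12 to 0.29 for Ntn4, -0.026 to 0.034 for Plxnb2, -0.27 to 0.016 for Efnb2, -0.27 to 0.094 for Ntn1 and -0.27 to 0.36 for Efna4. The cause was not tested. Counting transcripts with at least 20% of their gene's reads, a limit chosen after seeing the data, left the same number of non-overlapping shares, 6. Members under about 0.418 CPM are limited by depth.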
